A study of Homo sapiens with 4 samples.

Results

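The genes described here code for subunits of the nuclear RNA polymerases and of Mediator. They were chosen by name: every symbol that starts with POLR1, POLR2 or POLR3, or with MED and a digit, and that has 30 or more counts summed over the 4 libraries. Of 60 such symbols in the table of 19948 genes, 51 reached that minimum, which left 27 polymerase and 24 Mediator genes among 7527 genes tested by the same minimum. MED13L with 33 counts, MED13 with 35 and MED14 with 36 were just inside, and MED7 and POLR3GL with 29 counts each were just outside. Also outside were POLR3B with 19 counts, MED26 with 18, MED12L with 16, MED12 with 11, MED23 with 7, MED17 with 2 and POLR2J2 with 1.

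All libraries came from HEK293T cells, a line derived from human embryonic kidney, treated with cycloheximide at 100 ug/mL for 10 min so that ribosomes stay on their mRNAs. The lysate was spun through sucrose from 10% to 50%, and capped polyadenylated RNA from the free, monosome, light polysome and heavy polysome pools was read directly as RNA on nanopores, with 1 library per pool. No treatment other than cycloheximide is named for any pool. Total counts were 355509 in the free library and 1329334 to 1564531 in the others. VIM (850 counts), NEFL (218), LIN28B (98) and NEFM (40), which HEK293-derived cells are known to express, were present, while PAX2 had only 6 counts. The leukocyte, hepatocyte and endothelial markers PTPRC, ALB and PECAM1 had no count, HBB had 4 and COL1A1 had 2. A single library stands for each pool, so no difference could be compared with replicate spread. Intervals cover 95% counting error only. How much RNA each pool held is not known here, so every value is a share of its library.

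RNA polymerase I makes the precursor of the large ribosomal RNAs, RNA polymerase II makes mRNA, and RNA polymerase III makes tRNA and other small RNAs. Each enzyme has a pair of large catalytic subunits at its core, surrounded by many small ones, and several small subunits are common to all of them. Mediator is a complex that bridges DNA-bound activators and RNA polymerase II. Its head and middle modules touch the polymerase, the tail touches activators, MED14 is the backbone, and the detachable kinase module holds MED12 or MED12L, MED13 or MED13L, CDK8 or CDK19, and cyclin C (CCNC). The products of these genes are assembled in fixed proportions, while their mRNAs differ widely in coding length.

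The coding sequence of POLR3K, a small zinc-binding subunit of RNA polymerase III, shows how short the open reading frame of such a gene is. Its first 300 bases are from the GENCODE release 29 transcripts on GRCh38, with in-frame cysteine codons in capitals, since paired cysteines hold the zinc.
POLR3K: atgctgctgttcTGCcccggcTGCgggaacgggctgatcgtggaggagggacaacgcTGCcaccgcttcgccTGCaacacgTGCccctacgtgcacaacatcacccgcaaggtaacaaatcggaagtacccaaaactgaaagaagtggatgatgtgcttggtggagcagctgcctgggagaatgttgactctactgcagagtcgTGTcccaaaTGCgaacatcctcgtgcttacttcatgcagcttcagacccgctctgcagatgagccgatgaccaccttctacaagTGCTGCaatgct
The POLR3K gene lies at chr16:46407-53628 on the minus strand, and its whole reading frame has 327 nucleotides. POLR2I of RNA polymerase II is a related protein at the matching place in its enzyme, with 378 coding nucleotides. POLR2L, a part of every nuclear polymerase, has 204.

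As shares of whole libraries, the polymerase mRNAs summed highest in the light polysomes and the Mediator mRNAs in the heavy polysomes. Neither order held when ribosomal protein genes were left out of the library totals. The 27 polymerase genes summed to 1392 CPM, that is counts scaled to a library total of 1000000, in the free pool, 3892 in monosomes, 5790 in light polysomes (interval 5669 to 5913) and 3009 in heavy polysomes (2924 to 3096). The 24 Mediator genes summed to 205, 581, 1065 (1014 to 1119) and 1236 CPM (1181 to 1292) in the same order. The intervals of the heavy and light values did not overlap for either sum. The median tested gene was itself 1.51-fold higher in heavy than in light polysomes, and 61.3% of tested genes were highest in heavy polysomes. A higher heavy polysome sum therefore does not set Mediator apart from tested genes. Without ribosomal protein genes in the totals, the polymerase sums were 8485 CPM in light polysomes and 8617 in monosomes, and the Mediator sums were 1529 in heavy and 1561 in light polysomes. The values of each pair were close, and no intervals were made for them, so a reversed order is not shown. A few small subunits carried the polymerase sum: POLR2L alone gave 18.4% of its light polysome counts, and POLR2J gave 22.7% of its monosome counts.

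The sums of the members differed between enzymes. The 3 members particular to RNA polymerase I summed to 5.63 CPM in the free pool and 17.3 in monosomes. They summed to 41.3 in light polysomes and 137 in heavy polysomes, so the heaviest pool stood highest. POLR1E gave most of this: without it the sums were 0, 5.27, 24.7 and 38.4 CPM. Subunits of this enzyme under other symbols are outside the sum and rose less or fell. From light to heavy polysomes CD3EAP went from 74.0 to 85.6 CPM, TWISTNB from 10.0 to 31.3 and ZNRD1 from 82.0 to 60.1. The sum is thus one of 3 members and not of the whole enzyme. The 9 genes of RNA polymerase II summed to 515, 1750, 1785 and 861 CPM, with overlapping intervals for light polysome (1718 to 1854) and monosome (1679 to 1822) and a lower sum in the heavy polysomes. With ribosomal protein genes out of the totals the light polysome sum was 2615 and the monosome sum 3874. The 8 genes of RNA polymerase III summed to 138, 272, 677 and 646 CPM, with overlapping intervals for heavy (606 to 687) and light (636 to 720). This order was not stable: without the most counted gene the sums were 484 in heavy and 377 in light polysomes, and without ribosomal protein genes in the totals they were 799 and 992. The 7 subunits shared between enzymes summed to 734, 1854, 3287 and 1365 CPM and stood highest in the light polysomes.

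**Figure D1:**
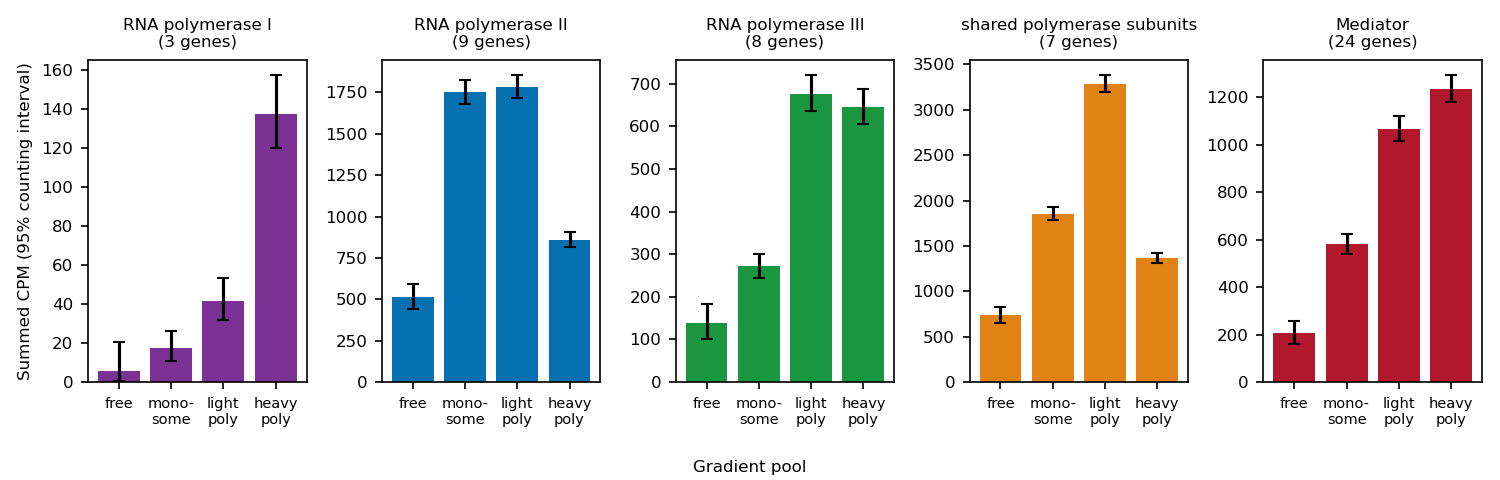
Summed CPM of each subunit group in the 4 gradient libraries, from free to heavy polysome, each panel with its own scale from 0. Bars are the share of the library and error bars are exact 95% counting intervals. The 3 RNA polymerase I members are highest in the heavy polysomes (137 CPM) and the shared subunits in the light polysomes (3287 CPM). Mediator is highest in the heavy polysomes (1236 CPM) on these totals, where the median tested gene is 1.51-fold higher than in light polysomes. Without ribosomal protein genes in the totals its sums are close (1529 heavy, 1561 light).

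Gene by gene, none of the 51 members had its highest CPM in the free pool, 4 had it in monosomes, 20 in light polysomes and 27 in heavy polysomes. In that order these are 0%, 7.84%, 39.2% and 52.9% of the members, against 1.30%, 7.44%, 30.0% and 61.3% of all tested genes, so the free and monosome shares were near those of all genes. The 4 with a monosome maximum were POLR2I, POLR2J, POLR2K and MED4. A mean gradient position, which gives the pools, in gradient order, weights of 0, 1, 2 and 3 and averages them by CPM, put the median member at 2.16 and the median tested gene at 2.25. POLR2K was lowest at 1.20 and MED27 highest at 2.67.

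**Figure D2:**
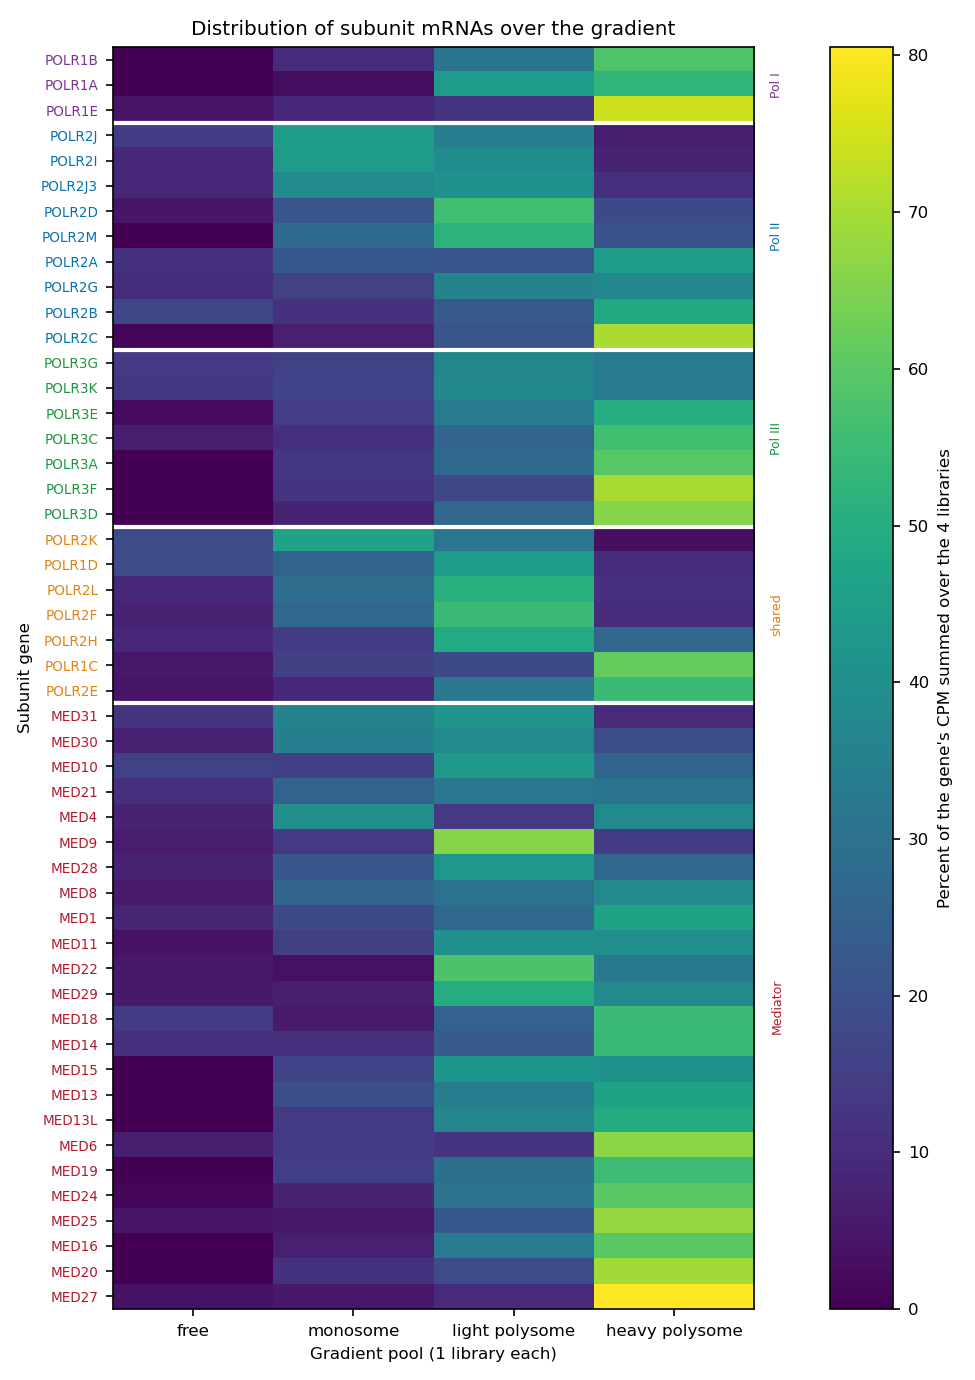
Each row is 1 of 50 subunit genes and each column a gradient library. Colour gives the percentage of the gene's CPM, summed over the 4 libraries, that lies in that library, and genes are ordered by mean gradient position within each group. POLR2K holds 3.31% of its CPM in the heavy polysome library and MED27 holds 80.5% there.

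Heavy and light polysomes were compared to see which subunit mRNAs carried many ribosomes rather than few. This pair has the most counts. A gene's relative log2 ratio is the log2 ratio of its shares in the libraries compared, minus that of the median of the 7527 tested genes, which was 1.51-fold higher in the heavy polysomes. Of the 51 members, 8 lay 2-fold or more above the median gene and 17 lay 2-fold or more below it, against 26.8% and 29.0% of all tested genes. These are 15.7% and 33.3% of the members. All 25 had counting intervals that excluded the median gene, as did 26.0% and 28.3% of tested genes that far above and below it. The median member lay at -0.26 (interval -0.79 to 0.28), and the members ranged from -3.83 to 2.39. That interval takes members as independent and holds no spread between libraries. It cannot show whether the set as a whole differs from the median gene.

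**Figure D3:**
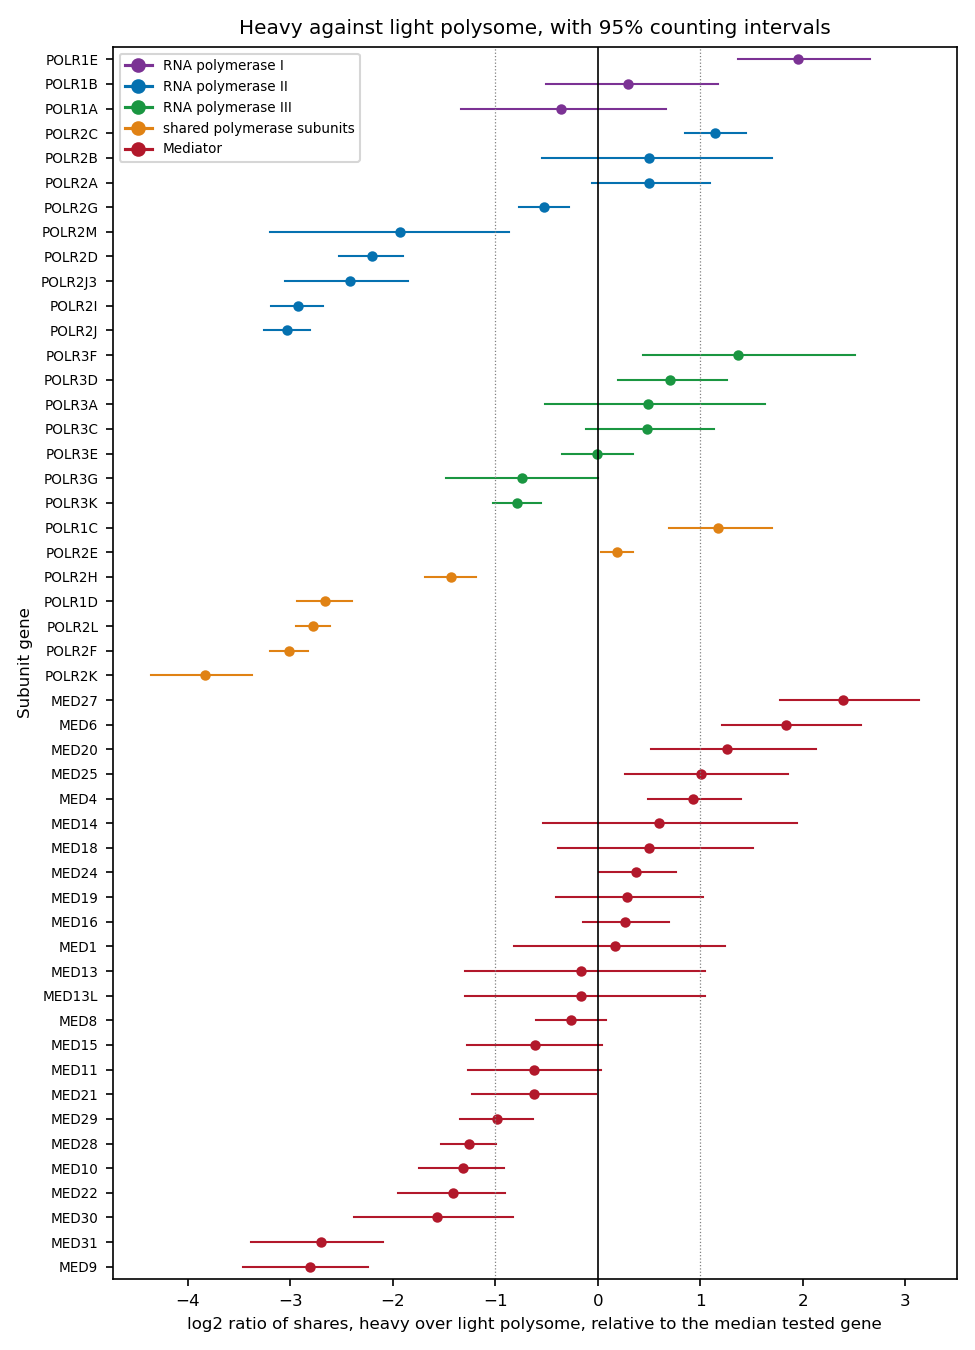
Relative log2 ratio of heavy over light polysome for 50 of the 51 genes (points) with exact 95% counting intervals (lines), by subunit group. The solid line at 0 is the median tested gene and the dotted lines mark 2-fold. MED27 is highest at 2.39 and POLR2K lowest at -3.83.

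The large catalytic subunits could not be told apart from the median gene in heavy against light polysome. POLR2A, whose long tail is phosphorylated during transcription by RNA polymerase II, had 5, 36, 39 and 87 counts in the pools, ordered as before. Its relative log2 ratio was 0.50 (-0.06 to 1.09). The matching subunit of RNA polymerase III, POLR3A, had 0, 5, 12 and 27 counts and lay at 0.49 (-0.51 to 1.63). POLR1A of RNA polymerase I had 0, 1, 17 and 21 counts and lay at -0.36 (-1.34 to 0.67). The partner catalytic subunits POLR1B and POLR2B lay at 0.29 (-0.50 to 1.17) and 0.50 (-0.54 to 1.70). All 5 intervals included the median gene and also reached past 2-fold, so nearness to it is not shown. The counts are too few to order these genes.

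The partners of the assembly heterodimers, chosen after their values were seen, lay on opposite sides of the median gene. The assembly platform of each enzyme is a heterodimer of a longer and a shorter protein: POLR2C with POLR2J in RNA polymerase II, and POLR1C with POLR1D in RNA polymerases I and III. POLR2C, at chr16:57462387-57472010, had 2, 37, 124 and 431 counts and lay at 1.14 (0.85 to 1.45). POLR2J, at chr7:102473118-102478907, had 100, 1177, 1015 and 195 counts and lay at -3.03 (-3.26 to -2.81).

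The same split was found in the other heterodimer. POLR1C had 3, 33, 44 and 157 counts and lay at 1.17 (0.69 to 1.70). POLR1D had 58, 306, 589 and 146 counts and lay at -2.66 (-2.94 to -2.40). The longer partner was thus densest in the heavy polysomes in both dimers, with 828 coding nucleotides in POLR2C and 1041 in POLR1C. The shorter one was densest in the monosome or light polysome library, with 354 in POLR2J and 402 in POLR1D. Of other tested genes with at most 450 coding nucleotides, 86.2% lay 2-fold or more below the median gene. POLR2J has near-identical copies, of which POLR2J3 lay at -2.42 (-3.05 to -1.85) and POLR2J2 had 1 count, and the counting may divide reads among them. On the opposite strand, exons of POLR1C overlap YIPF3 (416 counts, at -0.02) and those of POLR2J overlap LRWD1 (155 counts, at 0.93). Whether the counting used strand is unknown here, and the part of such reads was not tested.

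Among the subunits common to all nuclear polymerases, only POLR2E lay above the median gene. POLR2E, at the jaw that grips downstream DNA, had 17, 127, 518 and 927 counts and lay at 0.19 (0.03 to 0.35). POLR2H had 17, 97, 379 and 220 counts and lay at -1.44 (-1.68 to -1.19). POLR2F, at the base of the clamp, had 49, 618, 1432 and 279 counts and lay at -3.01 (-3.20 to -2.83). These subunits are present once in the same enzymes, and their mRNAs held 593, 141 and 178 CPM in the heavy polysome library, against 345, 253 and 955 CPM in the light polysome library.

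The smallest zinc-binding subunits also lay below the median gene. POLR2L had 66, 805, 1600 and 367 counts and lay at -2.77 (-2.94 to -2.61). CD151, which overlaps POLR2L on the opposite strand, had 379 counts and lay at 1.52. POLR2K, at chr8:100150584-100154002 and with 177 coding nucleotides the shortest annotated of the members, had 51, 478, 367 and 40 counts. Its relative log2 ratio was -3.83 (-4.36 to -3.38), the lowest of the set, and 0.73% of tested genes lay lower. POLR2K was also highest in the monosome library, at 360 CPM.

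Genes of like coding length could still differ. POLR2I and POLR3K, the related zinc-binding subunits, have similar lengths. POLR2I had 42, 746, 738 and 152 counts and lay at -2.93 (-3.19 to -2.68). POLR3K had 26, 121, 315 and 286 counts and lay at -0.79 (-1.03 to -0.56), so the intervals were apart. The matching subunit of RNA polymerase I, listed as ZNRD1, had 11, 45, 123 and 94 counts and lay at -1.04. Exons of POLR2I and POLR3K overlap genes on the opposite strand, and whether the counting used strand is unknown here. TBCB, which overlaps POLR2I, lay at 0.68, and SNRNP25, which overlaps POLR3K, had 1396 counts and lay at -3.03. The part of such reads in these values was not tested.

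**Figure D4:**
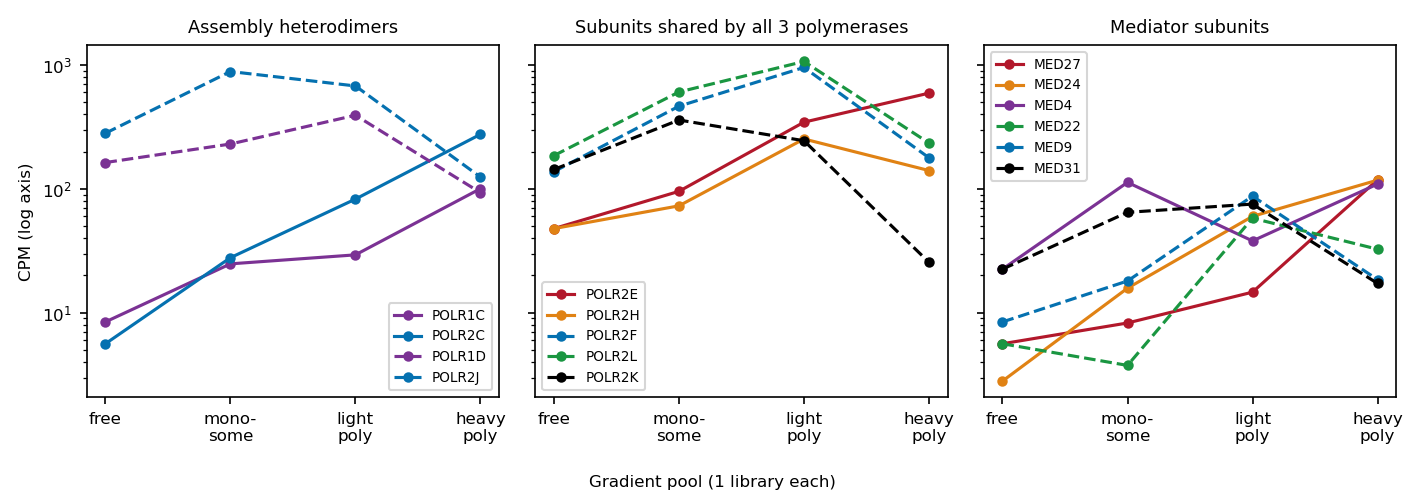
CPM (log axis) in the 4 gradient libraries for the assembly heterodimers, for the subunits common to all nuclear polymerases and for 6 Mediator subunits. Line style and colour only tell genes apart, and each point is 1 library. POLR2C reaches 275 CPM in the heavy polysome library while its partner POLR2J has 125 CPM there and 885 CPM in the monosome library.

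The stalk, which binds the emerging RNA, also had unlike partners. In RNA polymerase II, POLR2G had 19, 106, 275 and 300 counts and lay at -0.53 (-0.77 to -0.29). Its partner POLR2D had 7, 114, 339 and 115 counts and lay at -2.21 (-2.53 to -1.90). TWISTNB, the stalk protein of RNA polymerase I, lay at 1.02.

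The subunits that act at initiation ranged from -0.74 to 1.96. POLR1E, of the RNA polymerase I initiation dimer, had 2, 16, 25 and 155 counts and lay at 1.96 (1.36 to 2.65), the highest of the polymerase genes. Its partner, listed as CD3EAP, had 1, 28, 111 and 134 counts and lay at -0.38. In RNA polymerase III the corresponding dimer of POLR3D and POLR3E lay at 0.71 (0.20 to 1.26) and -0.01 (-0.35 to 0.34). The trimer that opens promoters for the same enzyme had POLR3F at 1.36 (0.44 to 2.51), POLR3C at 0.48 (-0.12 to 1.13) and POLR3G at -0.74 (-1.48 to 0.00). POLR2M, an associated protein that restrains RNA polymerase II, had 0, 12, 25 and 10 counts and lay at -1.93 (-3.20 to -0.87). Its exons overlap GCOM1 on the same strand, which had no count.

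Mediator genes had 4 members 2-fold or more above the median gene in the heavy against the light polysomes, 6 as far below it and 14 between, out of 24, where 26.8% and 29.0% of all tested genes lay that far above and below. MED27, at the junction of head and tail, had 2, 11, 22 and 185 counts and lay at 2.39 (1.78 to 3.13), above 94.8% of tested genes. MED6 of the head had 3, 24, 23 and 131 counts and lay at 1.83 (1.21 to 2.57). MED20, also of the head, lay at 1.26 (0.52 to 2.12) and MED25 of the tail at 1.01 (0.27 to 1.86). MED27 and MED6 held 80.5% and 66.7% of their CPM in the heavy polysome library.

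The head module was mixed. MED8 had 6, 99, 128 and 168 counts and lay at -0.26 (-0.60 to 0.08), MED18 lay at 0.50 (-0.39 to 1.51), MED19 at 0.28 (-0.40 to 1.02) and MED11 at -0.62 (-1.27 to 0.03). MED22 had 2, 5, 87 and 51 counts and lay at -1.42 (-1.95 to -0.91). MED22 held 58.0% of its CPM in the light polysome library.

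The middle module had no member 2-fold or more above the median gene and 3 of 6 as far below it, against 26.8% and 29.0% of all tested genes. Those 3 have at most 450 coding nucleotides, a length at which 86.2% of other tested genes lay that far below. MED9 had 3, 24, 131 and 29 counts and lay at -2.81 (-3.46 to -2.24), with 66.0% of its CPM in the light polysome library. MED31, at chr17:6643315-6651634, had 8, 86, 113 and 27 counts and lay at -2.70 (-3.38 to -2.10), and it overlaps TXNDC17 on the opposite strand, which had 815 counts and lay at -1.63. MED10 had 11, 40, 129 and 81 counts and lay at -1.32 (-1.74 to -0.91).

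The other middle subunits were closer to the median gene. MED21 lay at -0.62 (-1.23 to -0.02), and MED1, the subunit that nuclear receptors bind, lay at 0.16 (-0.82 to 1.24) with 48 counts in all. MED4 had a profile with 2 maxima, with 8, 150, 57 and 171 counts, or 22.5, 113, 38.0 and 109 CPM from free to heavy polysome. MED4 lay at 0.92 (0.49 to 1.39) in heavy against light polysome and at -2.55 (-3.02 to -2.10) in light polysome against monosome.

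Of the 4 tail genes 1, MED25, lay 2-fold or more above the median gene and none as far below it, against 26.8% and 29.0% of all tested genes. MED24 had 1, 21, 90 and 184 counts and lay at 0.38 (0.01 to 0.76). MED16 had 0, 14, 75 and 142 counts and lay at 0.26 (-0.14 to 0.69), and MED15 had 0, 14, 41 and 42 counts and lay at -0.62 (-1.27 to 0.04). Summed over MED15, MED16, MED24 and MED25, the tail held 5.63, 39.9, 150 and 274 CPM from free to heavy polysome. The head summed to 39.4, 126, 227 and 350 CPM, while the middle summed to 98.5, 258, 328 and 244 CPM.

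The junction subunits other than MED27 lay below the median gene. MED28 had 13, 131, 291 and 191 counts and lay at -1.26 (-1.53 to -0.99). MED29 had 4, 18, 150 and 119 counts and lay at -0.98 (-1.35 to -0.63), and MED30 lay at -1.57 (-2.38 to -0.83). The backbone MED14 had 36 counts and lay at 0.59 (-0.54 to 1.94). The kinase module rested on 35 counts for MED13 and 33 for MED13L, each with 17 in the heavy and 12 in the light polysome library. Both lay at -0.17 (-1.30 to 1.05).

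Coding length went with the position of these mRNAs on the gradient. Across the 49 members with an annotated coding length, Spearman's rho between coding length and the relative log2 ratio of heavy over light polysome was 0.66, with 0.75 over 25 polymerase and 0.56 over 24 Mediator genes. Over 7389 other tested genes it was 0.32. The genes share the same libraries, and the members were shorter, with a median of 741 coding nucleotides over members and 1203 over the others. With the lengths of the 5′ and 3′ untranslated regions rho was -0.02 and -0.10 over the members.

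Set beside other genes of similar coding length, the members had medians near theirs above 450 nucleotides. In the shortest class the member median was lower, but a smaller share of members lay 2-fold or more below the median gene. The 13 members of at most 450 coding nucleotides had a median of -2.70, and 654 other genes of that length had -2.06. Of these members 76.9% lay 2-fold or more below the median gene, against 86.2% of the other genes. From 450 to 900 nucleotides the medians were -0.39 over 16 members and -0.47 over 1769 others. From 900 to 3000 they were 0.59 over 12 members and 0.50 over 4413 others, and above 3000 they were 0.23 over 8 members and -0.06 over 553 others. Short members that lay less than 2-fold below the median gene were POLR3K, MED11 and MED21. The bounds of these classes were chosen with the values known.

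**Figure D5:**
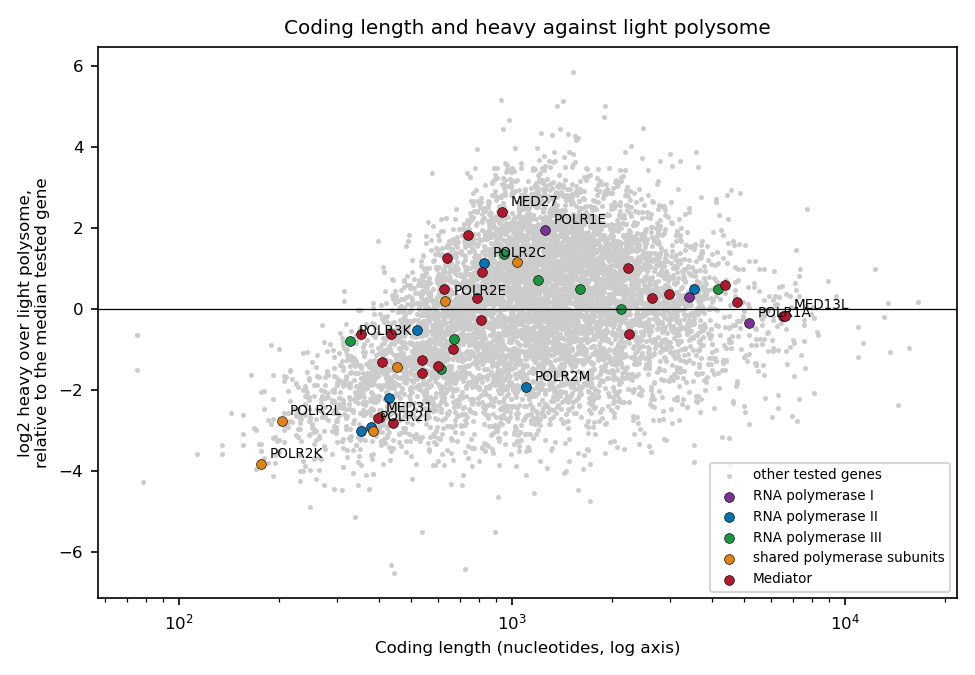
Coding length (log axis) against the relative log2 ratio of heavy over light polysome, for 49 members by group and 7389 other tested genes in grey. The members follow the grey cloud, low below about 450 nucleotides and near 0 above 3000, and POLR2M at -1.93 lies low for its length.

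Light polysome and monosome were compared to see which subunit mRNAs carried a few ribosomes rather than 1. Most members stayed near the median gene: 5 lay 2-fold or more above it and 6 as far below it, or 9.80% and 11.8% of members, against 18.5% and 20.0% of all tested genes. All 11 had intervals that excluded the median gene, as did 14.9% and 16.3% of tested genes in each direction. The median member lay at 0.03 (-0.19 to 0.32). MED22 was highest at 2.83 (1.69 to 4.62) on 92 counts in the pair. Among members with 100 or more such counts the highest were MED29 at 1.87 (1.19 to 2.69) and MED9 at 1.27 (0.66 to 1.98). POLR1A lay at 2.39 (0.26 to 8.32) on 1 monosome count.

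At the monosome end MED4 was lowest at -2.55, followed by POLR2K at -1.54 (-1.74 to -1.34), POLR2J at -1.37 (-1.49 to -1.25), MED6 at -1.22 (-2.11 to -0.33), POLR2I at -1.17 (-1.32 to -1.02) and POLR2A at -1.04 (-1.73 to -0.35). MED6 and MED4 therefore lay low here and above the median gene between heavy and light polysome. POLR2L and POLR2F, short as they are, lay at -0.17 (-0.29 to -0.04) and 0.05 (-0.08 to 0.19). Coding length had a rho of 0.18 with this ratio over 49 members (0.33 over polymerase genes, -0.03 over Mediator genes) and -0.01 over the other genes. Whole mRNA length had a rho of 0.37 over the members (0.53 and 0.24) and 0.02 over the other genes.

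Between heavy polysome and monosome the same extremes stood further apart, a comparison that shares its libraries with the preceding ones. Here 10 members lay 2-fold or more above the median gene and 17 as far below it, or 19.6% and 33.3%, against 24.5% and 29.1% of all tested genes. Intervals excluded the median gene for 8 and 17 of them, as for 21.0% and 27.0% of tested genes. The median member lay at -0.39 (-0.80 to 0.35). POLR2K was lowest at -5.54 (-6.06 to -5.09), then POLR2J at -4.57 (-4.80 to -4.35), POLR2I at -4.27 (-4.53 to -4.02) and MED31 at -3.63 (-4.33 to -3.01). MED27 was highest at 2.04 (1.22 to 3.12), and POLR2C lay at 1.55 (1.08 to 2.09). MED16 and MED24 of the tail lay at 1.32 (0.57 to 2.27) and 1.13 (0.50 to 1.88).

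Heavy polysome and free were compared to set mRNAs with many ribosomes against those with none. The free library held 568 counts for all members together, with a median of 2 per member, and 12 members had none there. On this footing 11 members lay 2-fold or more above the median gene and 24 as far below it, against 23.5% and 30.0% of all tested genes. Only 2 of the 11 and 14 of the 24 had intervals that excluded the median gene, where 6.36% and 15.3% of tested genes did so in each direction. The median member lay at -0.82 (-1.28 to -0.05), and at -0.21 with genes that lack a free count set at a floor of 3 counts.

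The split of calls in that comparison depended on the centring. With TMM centring 14 members were higher and 16 lower, and all tested genes split into 2719 higher and 1647 lower in place of 1766 and 2258. With DESeq2 size factors 12 members were higher and 18 lower, and all tested genes split into 2432 and 1800. The split also moved in heavy polysome against monosome, where all tested genes had 1845 higher and 2193 lower. There TMM gave 2257 and 1944, with 11 and 16 members, and DESeq2 gave 2265 and 1935, with 11 and 15. Heavy polysomes exceeded the free pool 8.26-fold for the median gene, and as plain shares 41 members were higher and 2 lower, with 6354 and 296 of all tested genes. Plain shares gave 16 and 11 members in heavy against light polysome (3001 and 1391 genes), 32 and 8 in heavy polysome against monosome (4988 and 775) and 26 and 1 in light polysome against monosome (3716 and 376).

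The lowest members in this comparison were short subunits. POLR2K lay at -5.53 (-6.17 to -4.91), POLR2J at -4.22 (-4.57 to -3.86), POLR1D at -3.86 (-4.30 to -3.39), MED31 at -3.49 (-4.61 to -2.08) and POLR2I at -3.34 (-3.83 to -2.80). POLR2K, POLR2J, POLR1D and POLR2I had 42 to 100 free counts, so these values rest on more reads than most. At the other end POLR2C, with 2 free and 431 heavy polysome counts, lay at 2.25 (0.71 to 5.62). MED16 and POLR3D had no free count, and their shares in the heavy polysomes were at least 10.8-fold and 8.41-fold higher than a floor of 3 free counts. These are plain shares on the floor, while the 8.26-fold of the median gene has 0.5 added to each count, so the scales differ. With the floor the median gene had a log2 ratio of 1.98. With 0.5 added, the relative log2 ratio was 2.97 for MED16, with an interval from 0.06 upward. For POLR3D it was 2.62, with an interval from -0.30 upward that included 0.

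Other transcription genes are given beside the members in heavy against light polysome. Among all tested genes 26.8% lay 2-fold or more above the median gene and 29.0% as far below it. The lists are small, and whether any differs from these shares was not tested. Of 29 tested general initiation factors of RNA polymerase II, 11 lay 2-fold or more above the median gene and 10 as far below it, with a median of 0.25. TAF10 (156, 496, 698 and 119 counts), a subunit of TFIID, lay at -3.20, GTF2A2 of TFIIA at -3.13 and GTF2H2 of TFIIH at 0.06. Of 19 elongation factors 7 lay above and 2 below in this sense, with a median of 0.87. SSRP1 of the histone chaperone FACT lay at 2.01, and NELFB and NELFE of the pausing factor NELF at 0.87 and 1.45.

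Among 13 tested RNA polymerase III factors 3 lay above and 6 below in the same sense, where 26.8% and 29.0% of all tested genes did. GTF3A, which brings the enzyme to 5S RNA genes, had 151, 724, 484 and 89 counts and lay at -3.09. GTF3C6 lay at -1.74 and the repressor MAF1 at -1.88. Of 6 factors that assemble the polymerases or carry them to the nucleus 3 lay above and none below, with GPN1 at 0.98, GPN3 at 1.08 and GPN2 at -0.33. Of 6 RNA polymerase I factors 2 lay above and none below, with UBTF at 0.64, TAF1D at 1.15 and RRN3 at 0.57.

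Of the Mediator kinase partners CDK8 had 0, 3, 5 and 42 counts and lay at 2.30, and CCNC had 6, 121, 153 and 129 and lay at -0.90. CDK19 had 21 counts in all and was not tested. Of 5 polymerase subunits listed under other symbols, 1 lay 2-fold or more above the median gene (TWISTNB) and 2 as far below it (CRCP and ZNRD1). The shares over all tested genes were 26.8% and 29.0%. The mitochondrial polymerase POLRMT had 117 counts and lay at -0.42.

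The title of the series names TOP mRNAs, which start with a C and a run of pyrimidines at the cap, so the annotated starts were read for a C followed by 4 pyrimidines. None of 34 members with a RefSeq promoter entry (GRCh38.p14) began in that way, against 41 of 70 tested ribosomal protein genes (58.6%) and 6.39% of 6131 tested genes. The share over all tested genes is itself low, so none among 34 does not set the members apart from them. These windows begin at 1 annotated start per gene, and no match says only that the letters are not at that position.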

How the data were processed

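Whole-number counts per gene symbol, unscaled, were deposited by the authors. The submitters' processing notes name minimap2 2.15, featureCounts, Subread 1.6.2 and hg38. Annotation release, multiply aligned reads and strand setting are not described there. Every deposited column was used. GENCODE release 29 (GRCh38) supplied gene positions and coding lengths, and matched 19670 of 19948 symbols. POLR2A and POLR2J3 have no usable coding length there (a flagged sequence error and duplicate entries). Exons of 17 members overlap another protein-coding gene, 15 of them on the opposite strand only.

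Ratios used 0.5 added to each count and library totals, with exact conditional binomial (Clopper-Pearson) 95% intervals. Group sums have exact binomial intervals, and medians have order-statistic intervals that take members as independent. A floor is 3 counts, or 8.44 CPM in the free library. Called means 2-fold or more from the median tested gene. With 1 library per pool no replicate test could be fitted. Intervals were tried on simulated counts that hold counting error alone, which says nothing about spread between libraries.

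The members and lists were chosen with earlier results of these data known. All members may be named, except 1 that enters every count and sum and is not reported here. Values in full go to the 3 most counted of each group and module, the 5 highest and 5 lowest per comparison with 100 or more counts in the pair, the large catalytic subunits, the longest and shortest, and the 3 most counted of each list with CDK8, CDK19, CCNC and POLRMT. Pairs of related subunits and their partners were chosen after their values were seen. Alternatives changed the minimum count, pseudocount, centring, members and position weights. Python 3.11.15, numpy 2.4.6, pandas 2.3.3, scipy 1.17.1, matplotlib 3.10.9, R 4.3.3, edgeR 4.0.16 (TMM factors) and DESeq2 1.42.0 (size factors) were used.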

Additional observations from a re-analysis of the deposited data

How the results depend on the processing

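Depth limits these results most in the free library, where the median member had 2 counts, and no setting replaces replicates. No paired analysis was possible because there is 1 library per pool. In heavy against light polysome the counts of called members stayed within 1.5 times under every alternative but library totals alone. Those totals by construction add back the median gene's shift. The number of members entering changed with the minimum count, so their shares moved more. At a minimum of 100 counts 6 of 35 members were higher and 16 lower, beside 1284 and 1293 of 4343 tested genes. In the main setting they were 8 and 17 of 51, beside 2015 and 2180 of 7527. Library totals alone gave, for light polysome against monosome, a median of 1.01 with 26 higher and 1 lower. They gave 0.33 with 16 and 11 for heavy against light polysome, 1.35 with 32 and 8 for heavy polysome against monosome, and 2.23 with 41 and 2 for heavy polysome against free.

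For light polysome against monosome, 9 of 57 members were higher with a minimum of 10 counts, beside 2020 of 9865 tested genes. With no minimum 12 of 60 were, beside 2700 of 12980. For heavy polysome against monosome the median was -0.84 over 35 members with a minimum of 100. With no minimum 17 of 60 members were higher, beside 3518 of 12980 tested genes. For heavy polysome against free the median was -1.35 at a minimum of 100, with 4 of 35 members higher, beside 1148 of 4343 tested genes. At no minimum it was -0.013, with 21 of 60 members higher and 12 lower, beside 4158 and 4494 of 12980 tested genes. Without a pseudocount 6 of 39 members were higher, beside 1390 of 5170 tested genes. With the floor of 3, chosen after seeing the data, 14 of 51 were lower, beside 2021 of 7527. The minimum changes which members enter, and other causes were not tested.

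Of 95 single-member values 2-fold or more from the median gene, over the 4 comparisons, 22 changed sign under library totals alone, and none did under TMM or DESeq2 centring or a pseudocount of 1. None of the 88 such values that remained without a pseudocount did either. Of 105 values within 2-fold, 7 changed sign under TMM, 7 under DESeq2, 3 with a pseudocount of 1 and 45 under library totals alone, as did 5 of 100 without a pseudocount. The 22 are as follows. In heavy polysome against monosome the values became 0.24 for MED21, 0.31 for MED28, 0.52 for MED8 and 0.033 for MED9. In heavy polysome against free they became 1.95 for MED1, 0.69 for MED10, 1.77 for MED14, 1.65 for MED18, 1.32 for MED21, 1.69 for MED28, 1.09 for MED30 and 0.94 for MED9. For polymerase genes they became 1.85 for POLR2A, 1.21 for POLR2B, 1.81 for POLR2D, 0.36 for POLR2F, 1.81 for POLR2G, 1.52 for POLR2H, 0.18 for POLR2J3, 0.33 for POLR2L, 1.08 for POLR3G and 1.30 for POLR3K.

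Summed CPM, in gradient order, changed without the most counted member to 0, 5.27, 24.7 and 38.4 for RNA polymerase I, 233, 864, 1108 and 736 for RNA polymerase II, 92.8, 162, 377 and 484 for RNA polymerase III, and 549, 1248, 2220 and 1131 for shared subunits. All polymerase genes became 1207, 3287, 4723 and 2775, and Mediator 482, 871 and 1113 from monosome on. With ribosomal protein genes out of the totals, the sums were 38.3, 60.6 and 170.0 from monosome on for RNA polymerase I, 1469, 3874, 2615 and 1065 for RNA polymerase II, 393, 601, 992 and 799 for RNA polymerase III, 2096, 4104, 4817 and 1689 for shared subunits, 3974, 8617, 8485 and 3724 for all polymerase genes, and 586, 1286, 1561 and 1529 for Mediator. With position weights of 0, 1, 3 and 6, halved, the median member stood at 1.88.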
